A study of Mus musculus with 21 samples.

Results

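The samples described here are the embryoid bodies of a mouse embryonic stem cell line that carries a TWIST1-TCF12 dimer and those of its parental line. They were chosen by title and make up 6 of the 21 samples in the series, 3 in each group, and all genes were read. Embryoid bodies are aggregates of differentiating embryonic stem cells, and RNA was taken on day 3 of differentiation. The parental line is A2loxCre, a line built so that a coding sequence can be placed behind a doxycycline-inducible promoter at the Hprt locus. The TCF12 dimer line is A2loxCre with the Twist1-Tcf12 dimer integrated. Both groups received doxycycline for 16 h and both are labelled strain C57BL/6, so the parental samples control for the drug. No sample of the TCF12 dimer line without doxycycline was analysed here, and the labels do not say whether the line is 1 clone. A difference from the parental line can therefore belong to the dimer or to the line, and these cannot be told apart in that comparison. For that reason values are set beside 3 further groups of 3: a line with the Twist1 monomer integrated and kept without doxycycline, and the induced lines with a Twist1-Tcf4 or a Twist1-Tcf3 dimer.

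TWIST1 is a transcription factor of the basic helix-loop-helix (bHLH) class that is known for its part in mesoderm, cranial mesenchyme and neural crest, and in the epithelial to mesenchymal transition. Such factors bind DNA as pairs, and TWIST1 pairs with itself or with an E protein, among them TCF3, TCF4 and TCF12. The pair reads the E-box, the short motif CANNTG. ID proteins have the helix-loop-helix but no basic region, so they take up E proteins without binding DNA and hold bHLH factors back.

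The library depth of the 6 samples lay between 9067743 and 12138654 counts. The pluripotent origin of the cells was checked with pluripotency genes that persist at this stage. In all 6 samples Pou5f1 lay between 494 and 770 CPM (counts scaled to the size of the library) and Lin28a between 405 and 516 CPM. These levels do not by themselves show the embryoid body form or the day. Replicate 1 of the TCF12 dimer stood apart from replicates 2 and 3. In it the genes of the shortest of 5 equal classes of transcript length had a median 0.606 above the parental mean and those of the longest class a median of -0.552 (log2(CPM + 0.5) scale). The same medians were 0.0222 and -0.00524 in replicate 2, and -0.0488 and 0.0720 in replicate 3. Leaving replicate 1 out lowered the common biological coefficient of variation from 0.12 to 0.0539. What set this library apart was not tested, and its levels are given but read with the length pattern in mind. The labels do not say that the replicates came from separate cultures, so p-values measure the spread between these samples.

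**Figure D1:**
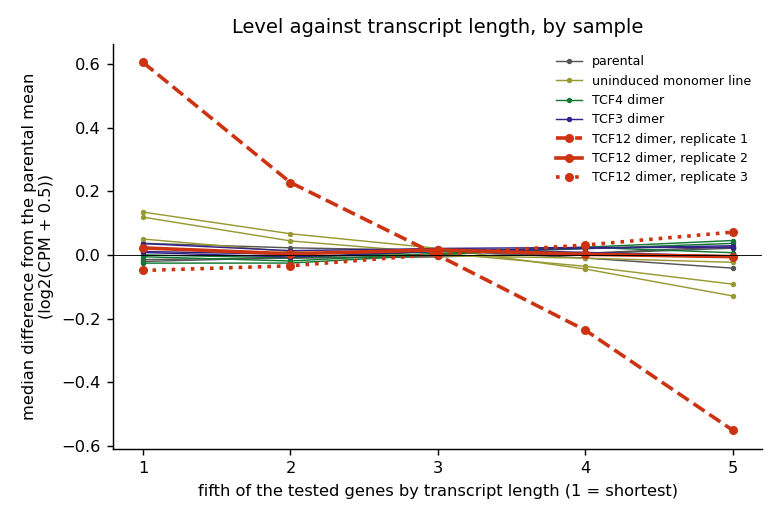
Median difference of each sample from the parental mean, on the log2(CPM + 0.5) scale, for the tested genes split into 5 equal classes of transcript length, with 1 line per sample. Replicate 1 of the TCF12 dimer runs from 0.606 in the shortest class to -0.552 in the longest, whereas the other samples stay within 0.135 of 0.

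Genes were tested with edgeR's quasi-likelihood test and Benjamini-Hochberg adjustment over all genes, at an adjusted p under 0.05, once with all 21 samples and once with the 20 samples that remain without TCF12 dimer replicate 1. With all samples 3864 of 14311 genes passed (27.0%), 2213 higher (15.5%) and 1651 lower (11.5%) in the TCF12 dimer line than in the parental line. Without replicate 1 there were 4367 of 14423 (30.3%), 2263 higher (15.7%) and 2104 lower (14.6%). A gene is said below to have risen or fallen where it passed in both fits in the same direction. That held for 3016 of the 14294 genes tested in both (21.1%), with 1568 higher (11.0%) and 1448 lower (10.1%), and 0 genes passed in opposite directions. In 507 of the higher and 279 of the lower genes the difference was at least 2-fold in both fits. The median log2 fold change of all tested genes was 0.0244 with and 0.000607 without replicate 1. In 1463 of the 1568 higher genes all 3 dimer samples lay above all 3 parental samples, and in 1407 of the 1448 lower genes all lay below. Over all tested genes the samples were separated upward in 16.9% and downward in 16.4%. Without TCF12 dimer replicate 3 the count rose to 6165, and in a fit of the 6 samples alone it was 824, of which 823 were among the 3016.

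**Figure D2:**
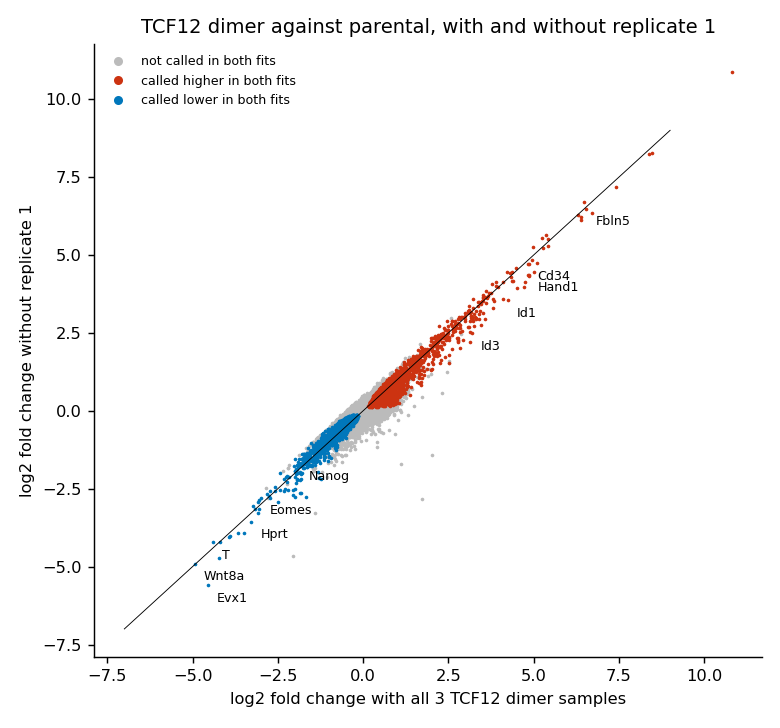
Log2 fold change of the TCF12 dimer against the parental line for each gene, with all 3 dimer samples on the horizontal axis and without replicate 1 on the vertical axis, on the line of equality where they match. Red and blue points are the 1568 and 1448 genes called higher and lower in both fits, and grey points the others. For genes with 0 counts in a group the position depends on the prior count of the fit.

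The introduced factors came first. Twist1 was at 8.94, 8.02 and 7.37 CPM in the parental samples and at 39.5, 48.3 and 39.0 CPM in the TCF12 dimer samples. The groups did not overlap, and the log2 fold change was 2.38 ± 0.11 (SE, adjusted p = 3.4e-11, edgeR). Tcf12 was at 62.9, 66.5 and 68.9 CPM in the parental line and at 53.2, 118 and 108 CPM in the dimer line. Replicate 1 lay below the parental samples and the other two above them. The log2 fold change was 0.50 ± 0.19 with all samples (adjusted p = 0.055) and 0.77 without replicate 1 (adjusted p = 1.5e-08), so Tcf12 did not pass in both fits. The Tcf12 gene model is 15529 bases long, among the lengths that were low in that library. In the lines that carry another partner the Tcf12 mean was 90.4 ± 4.8 CPM (TCF4) and 104 ± 15 CPM (TCF3; SD, n = 3 each). With all samples the difference of the TCF12 dimer passed against neither (log2 differences of 0.05 and -0.16, adjusted p = 0.89 and 0.55). Without replicate 1 it was higher than the TCF4 dimer by 0.32 (adjusted p = 0.015), its replicates 2 and 3 lying above every TCF4 dimer sample, while the difference from the TCF3 dimer was 0.12 (adjusted p = 0.29). The Tcf12 count thus set the TCF12 line apart from neither line in both fits, and the sources used here do not say which bases of the construct would be counted under this symbol. Tcf4, by contrast, was at 330 CPM in the TCF4 dimer line and at 49.6 ± 13.2 CPM in the TCF12 dimer line, a log2 difference of -2.73 ± 0.15 (adjusted p = 3.2e-09). Tcf3 did not pass in either fit, at 167 ± 6 CPM in the parental and 175 ± 13 CPM in the TCF12 dimer line. Hprt, the gene next to the integration site, went from 82.8 ± 2.9 CPM in the parental line to 11.9, 8.29 and 5.81 CPM. It averaged 3.81 CPM in the uninduced monomer line, 9.24 CPM in the TCF3 dimer line and 30.1 ± 3.8 CPM in the TCF4 dimer line, the last above the TCF12 dimer in both fits (log2 difference of TCF12 from TCF4 -1.81, adjusted p = 1.2e-05).

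All 4 genes of the ID family rose, against 11.0% of all genes. Id1 was at 32.7, 31.2 and 30.6 CPM in the parental samples and at 1060, 426 and 311 CPM in the TCF12 dimer samples. Its log2 fold change was 4.25 ± 0.32 (adjusted p = 1.6e-08) and 3.55 without replicate 1. Id2 went from 27.7 ± 3.0 CPM to 365, 259 and 187 CPM, and Id3 from 38.9 ± 2.8 CPM to 632, 250 and 187 CPM. The log2 fold change of Id3 was 3.19 with all samples and 2.49 without replicate 1. Id4 went from 3.07 ± 0.82 CPM to 39.8, 26.3 and 20.5 CPM. In each of the 4 the groups did not overlap and replicate 1 was the highest sample. The Id1 and Id3 models are short, at 1160 and 1791 bases, and with offsets that remove the length pattern their log2 fold changes were 3.75 and 2.82. In the uninduced monomer line the 4 genes averaged 29.3, 33.6, 20.9 and 2.78 CPM, below each TCF12 dimer sample.

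**Figure D3:**
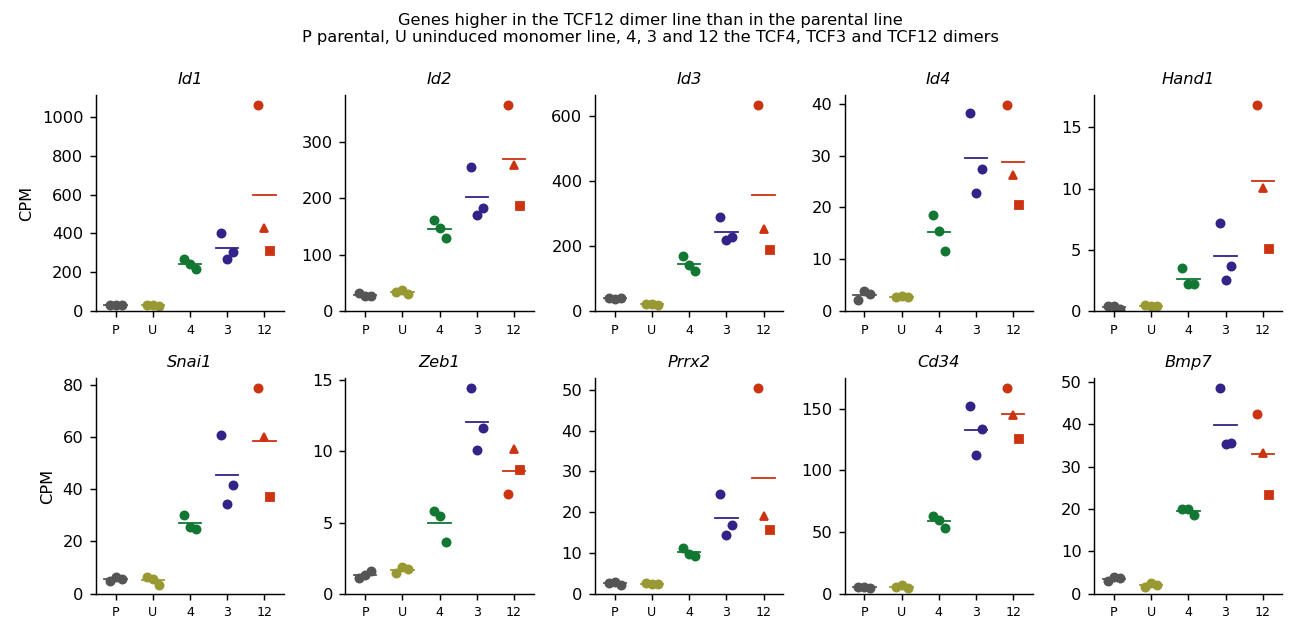
CPM in each sample for 10 genes that rose, with a bar at each group's mean, for the parental line, the uninduced monomer line and the TCF4, TCF3 and TCF12 dimer lines. In the TCF12 dimer column the circle is replicate 1, the triangle replicate 2 and the square replicate 3, and for Id1 they stand at 1060, 426 and 311 CPM.

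Of 19 tested tissue bHLH factors and their near relatives, 13 rose and 1 fell, against 11.0% and 10.1% of all genes. Their median log2 fold change was 1.12 (0.923 without replicate 1). Hand1, a bHLH factor of heart, lateral plate and extraembryonic mesoderm that also pairs with E proteins, was at 0.436, 0.434 and 0.202 CPM in the parental line. In the TCF12 dimer line it was at 16.8, 10.0 and 5.08 CPM, a log2 fold change of 4.84 ± 0.55 (adjusted p = 2.7e-06). Its relative Hand2 had 2 counts over the 3 parental samples and 80 over the 3 dimer samples, a ratio of 33.2 (95% counting interval 8.90 to 279). Bhlhe22, a repressor known from neural tissue, went from 0.772 ± 0.301 CPM to 20.7, 15.6 and 12.8 CPM. Hes1 and Hes6, members of the family of Notch-related repressors, rose by 1.12 ± 0.20 and 1.68 ± 0.29 with all samples, and by 0.70 and 0.92 without replicate 1. Hes6 thus lost much of its size with that library, whose 250 CPM stood over 90.3 and 71.2 CPM in the other two. The early B-cell factors Ebf1, Ebf2 and Ebf3, listed here as related helix-loop-helix factors, all rose, and Ebf2 went from 2 to 118 counts (ratio 49.0, 95% counting interval 13.3 to 409). Mycn fell from 151 ± 6 CPM to 97.6, 112 and 100 CPM.

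The transcription factors of the epithelial to mesenchymal transition rose in 9 of 10 cases and fell in 1 (11.0% and 10.1% of all genes). Their median log2 fold change was 2.76 (2.78 without replicate 1). Snai1, a repressor of E-cadherin, went from 5.58 ± 0.80 CPM to 78.7, 59.8 and 37.1 CPM (log2 fold change 3.38 ± 0.27, adjusted p = 2.7e-08). Its paralog Snai2 went from 0.176 ± 0.165 CPM to 6.61, 5.50 and 4.36 CPM. Zeb1 and Zeb2, zinc finger repressors of epithelial genes, went from 1.34 ± 0.26 to 7.03, 10.2 and 8.72 CPM and from 9.18 ± 1.76 to 12.6, 26.6 and 24.2 CPM. For both, replicate 1 was the lowest dimer sample and still lay above the parental samples. Prrx2, a homeobox factor of mesenchyme, went from 2.55 ± 0.30 CPM to 50.5, 19.1 and 15.7 CPM, with log2 fold changes of 3.46 with all samples and 2.76 without replicate 1. Sox9, of cartilage and neural crest, went from 1.38 ± 0.13 CPM to 11.9, 12.9 and 11.5 CPM. Klf8 was the member that fell, from 15.6 ± 1.7 CPM to 5.98, 10.3 and 10.2 CPM.

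Mesenchymal matrix and adhesion genes rose in 19 of 34 cases and fell in 2, while epithelial genes fell in 14 of 24 and rose in 1. Among all genes 11.0% rose and 10.1% fell, so the counts of 2 and 1 are not above the background. Tgfbi, a secreted matrix protein, went from 1.09 ± 0.19 CPM to 40.1, 32.9 and 30.1 CPM, a log2 fold change of 4.95 ± 0.21 (adjusted p = 9.8e-12). Vim, the intermediate filament of mesenchymal cells, went from 96.4 ± 6.7 CPM to 362, 249 and 218 CPM. Cdh11, a mesenchymal cadherin, went from 11.1 ± 0.7 to 39.8, 66.5 and 52.3 CPM, and the metalloprotease Mmp2 from 64.6 ± 4.6 to 210, 200 and 182 CPM. Genes known from smooth muscle were split. Acta2 rose from 0.427 ± 0.197 CPM to 2.62, 2.22 and 1.45 CPM, Cnn1 fell from 17.8 ± 2.3 CPM to 11.8, 7.88 and 8.88 CPM, and Tagln was at 28.8, 11.8 and 12.8 CPM against 18.4 ± 0.6 CPM. The median log2 fold change of the 34 genes was 0.644, and 0.600 without replicate 1. Against the uninduced monomer line 17 were higher and 8 lower in both fits, where 17.0% and 15.7% of all genes were. Against the TCF4 dimer 8 were higher and 1 lower (1.73% and 1.01% of all genes). Against the TCF3 dimer 4 were higher and 11 lower (6.24% and 8.50% of all genes).

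The epithelial changes were smaller in size, with a median log2 fold change of -0.382 (-0.349 without replicate 1). Cdh1, which encodes E-cadherin, went from 1019 ± 6 CPM to 621, 862 and 949 CPM. All 3 dimer samples were lower, and the log2 fold change was -0.33 ± 0.10 (adjusted p = 0.021) and -0.17 without replicate 1 (adjusted p = 0.0074). The tight junction genes Cldn6 and Ocln went from 244 ± 9 to 153, 125 and 141 CPM and from 23.5 ± 2.0 to 7.76, 13.7 and 17.7 CPM. Cldn4, another claudin, was the member that rose, from 23.1 ± 1.3 CPM to 45.7, 32.3 and 32.4 CPM. Spint2 changed sign with the library: its log2 fold change was 0.17 with all samples and -0.26 without replicate 1.

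Genes of bone morphogenetic protein (BMP) signalling rose in 7 of 18 cases and fell in 3, against 11.0% and 10.1% of all genes, so that the count of those that fell is near the background. BMPs are secreted ligands that act through SMAD proteins, and ID genes are among their known targets. Of the ligands, Bmp7 went from 3.56 ± 0.45 CPM to 42.4, 33.3 and 23.2 CPM (log2 fold change 3.20 ± 0.22, adjusted p = 4.5e-09) and Bmp4 from 4.47 ± 1.07 CPM to 15.3, 11.98 and 7.99 CPM. In the uninduced monomer line Bmp7 averaged 2.06 CPM and was below the TCF12 dimer in both fits. Bmp4 averaged 10.0 CPM there, and its difference from the TCF12 dimer did not pass in both fits. Gdf10, a ligand of the same superfamily, had 2 counts over the parental samples and 232 over the dimer samples, a ratio of 96.3 (95% counting interval 26.4 to 800). Smad6, a feedback inhibitor of BMP signalling, went from 2.20 ± 0.55 CPM to 14.0, 11.2 and 7.59 CPM, whereas Smad7, the other inhibitory SMAD, fell from 74.2 ± 1.1 CPM to 55.9, 60.4 and 62.1 CPM. The pseudoreceptor Bambi went from 14.1 ± 1.2 CPM to 32.6, 20.4 and 19.6 CPM. The secreted antagonists Fst and Chrd fell, Fst from 101 ± 12 CPM to 7.66, 11.7 and 12.8 CPM. Fst was at 11.8 CPM in the uninduced monomer line, where its difference from the TCF12 dimer did not pass.

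Among mesenchymal homeobox genes 4 of 12 rose and 2 fell, and with 10.1% of all genes lower the latter count is near the background. Meox2 had 0 counts in each parental sample and 26, 27 and 15 counts in the dimer samples, at least 6.27-fold higher when set against a floor of 3 counts per library. Lhx2 went from 0.715 ± 0.609 CPM to 10.8, 11.6 and 10.8 CPM. Msx1, by contrast, passed with replicate 1 (log2 fold change 0.61, adjusted p = 0.039) and not without it (0.39, adjusted p = 0.11). Cardiac and lateral plate genes rose in 10 of 17 cases and fell in 4, against 11.0% and 10.1% of all genes. Their median log2 fold change was 1.81 (1.80 without replicate 1). Isl1, a factor of cardiac progenitors, went from 0.528 ± 0.087 CPM to 5.98, 5.00 and 5.00 CPM, and Wt1, of the epicardium and urogenital mesoderm, from 5.17 ± 0.45 CPM to 21.3, 26.3 and 22.8 CPM. Gata4, Gata6 and Tbx3 were among those that fell, and Gata6 went from 12.1 ± 1.4 CPM to 2.94, 4.02 and 3.87 CPM.

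Hemangiogenic genes, which mark precursors of blood and vessels, rose in 9 of 24 cases and fell in 5, against 11.0% and 10.1% of all genes. Cd34, a sialomucin of vascular and blood precursors that is also on other stromal cells, was at 5.45, 5.20 and 4.74 CPM in the parental line and at 167, 145 and 126 CPM in the TCF12 dimer line. The log2 fold change was 4.83 ± 0.15 (adjusted p = 1.3e-13). Kdr, the VEGF receptor of mesodermal precursors, went from 2.17 ± 0.97 CPM to 5.56, 11.6 and 12.4 CPM. The ETS factors Fli1 and Ets1 went from 0.243 ± 0.149 to 5.35, 5.99 and 4.28 CPM and from 16.4 ± 2.4 to 58.7, 90.9 and 78.3 CPM. The genes that fell were Runx1, Pecam1, Sox7, Sox17 and Hhex. Several of these are also expressed in endoderm. The endothelial cadherin Cdh5 did not pass in both fits, at 1.05, 3.12 and 3.15 CPM against 1.70 ± 0.60 CPM. Of 14 listed erythroid genes 3 were expressed enough to test and 0 passed in both fits with edgeR, 0 with all samples and 1 without replicate 1.

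The primitive streak, where mesoderm and endoderm form, is marked by T, Mixl1, Eomes and Nodal signalling. Of 18 tested genes of this list 15 fell and 0 rose, against 10.1% of all genes falling, and their median log2 fold change was -1.84 (-2.22 without replicate 1). T (Brachyury) was at 23.7, 29.5 and 25.0 CPM in the parental samples and at 0.839, 1.89 and 0.888 CPM in the TCF12 dimer samples, a log2 fold change of -4.40 ± 0.24 (adjusted p = 1.8e-10). Eomes, a T-box factor, went from 133 ± 9 CPM to 11.0, 18.0 and 20.6 CPM. Nodal, the ligand that patterns the streak, went from 81.3 ± 5.1 CPM to 13.3, 11.7 and 11.9 CPM, and Fgf8 from 25.4 ± 2.6 CPM to 1.89, 1.64 and 1.45 CPM. The homeobox genes Mixl1 and Evx1 went from 17.6 ± 2.9 to 1.78, 3.12 and 2.82 CPM and from 6.48 ± 1.09 to 0.630, 0.246 and 0 CPM. No dimer sample reached the parental range in any of these 6 genes. In bulk RNA fewer cells of a type and less RNA per cell cannot be told apart.

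**Figure D4:**
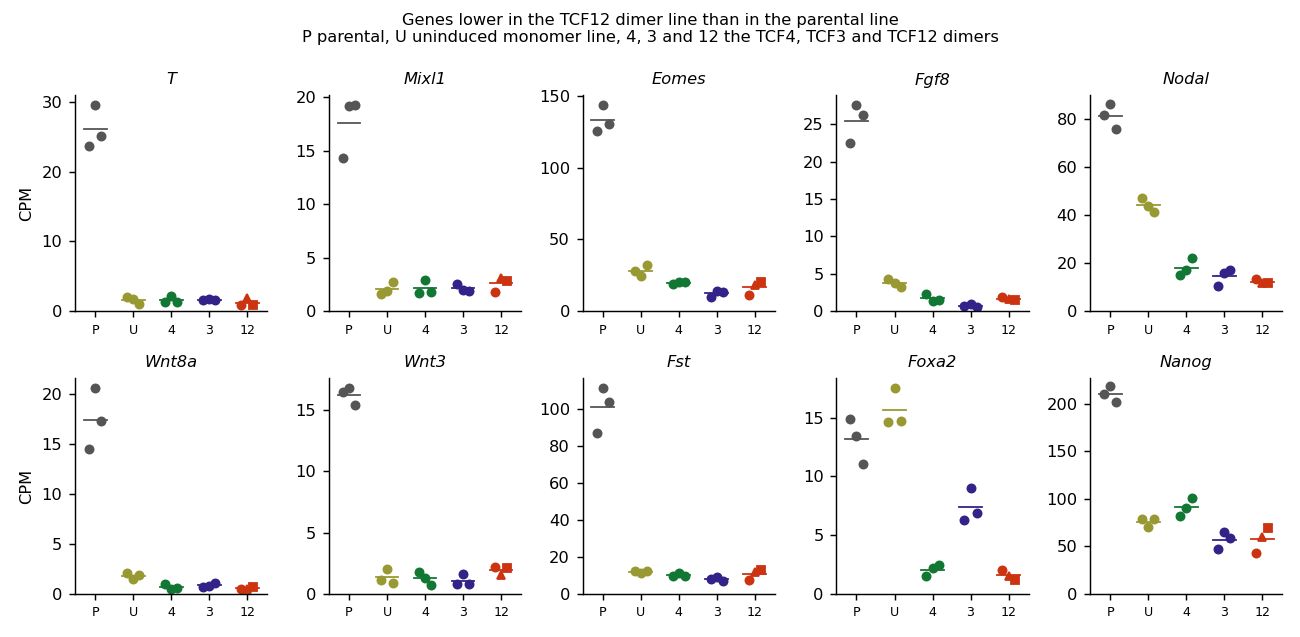
CPM in each sample for 10 genes that fell, with a bar at each group's mean, in the same 5 groups, with circle, triangle and square for replicates 1, 2 and 3 of the TCF12 dimer. The parental points of T lie between 23.7 and 29.5 CPM and all others below 3 CPM in the other 4 groups, including the monomer line without doxycycline.

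The monomer line that received no doxycycline was also low in part of this list. T averaged 1.60 CPM there, Mixl1 2.08 CPM and Evx1 0.184 CPM, and for these 3 genes the difference from the TCF12 dimer did not pass in either direction. The low level of these genes was therefore not particular to samples with an induced dimer. Against that line 11 of the 18 genes were lower in the TCF12 dimer and 1 was higher. Nodal averaged 44.0 CPM in the uninduced line, Eomes 28.1 CPM and Foxa2 15.7 CPM, and all 3 were lower in the TCF12 dimer line in both fits. Foxa2, a factor of node, axial mesoderm and endoderm, was at 14.9, 13.4 and 11.1 CPM in the parental and at 1.99, 1.48 and 1.21 CPM in the TCF12 dimer samples. Over all genes 4677 of 14294 (32.7%) passed in both fits against the uninduced monomer line, 2431 higher (17.0%) and 2246 lower (15.7%).

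Wnt signalling drives streak formation, and of 27 Wnt ligands and canonical targets 12 fell and 5 rose, against 10.1% and 11.0% of all genes. Wnt3, a ligand of the forming streak, went from 16.2 ± 0.7 CPM to 2.20, 1.56 and 2.10 CPM, and Wnt8a from 17.5 ± 3.1 CPM to 0.525, 0.492 and 0.646 CPM. Among the targets, Sp5 went from 9.43 ± 1.88 CPM to 0.735, 0.656 and 0.484 CPM and Axin2 from 38.9 ± 3.5 CPM to 12.4, 16.4 and 16.5 CPM. These also averaged 1.33, 1.81, 0.374 and 9.68 CPM in the uninduced monomer line. The genes that rose were the secreted Wnt antagonists Notum and Dkk1, the feedback inhibitors Nkd1 and Nkd2, and Apcdd1. Notum went from 1.23 ± 0.33 CPM to 26.0, 12.1 and 7.43 CPM (log2 fold change 3.58 ± 0.40, adjusted p = 1.9e-06, and 2.96 without replicate 1). In the uninduced monomer line Notum averaged 4.07 CPM, Nkd1 2.81 CPM, Nkd2 8.13 CPM and Apcdd1 2.96 CPM, each below the TCF12 dimer in both fits. Dkk1 averaged 16.3 CPM there, above its TCF12 dimer values of 15.7, 11.3 and 8.15 CPM, a difference that passed without replicate 1 (adjusted p = 0.00034) and not with it (adjusted p = 0.057).

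Endoderm genes fell in 16 of 24 cases and rose in 1, against 10.1% and 11.0% of all genes. Their median log2 fold change was -0.699 (-0.696 without replicate 1). The list covers definitive and primitive endoderm. Its summed level was 1479 to 1537 CPM in the parental line and 741 to 1092 CPM in the TCF12 dimer line, against 4650 to 5403 CPM in the uninduced monomer line. Cubn, an endocytic receptor of visceral endoderm, went from 160 ± 14 CPM to 37.8, 61.1 and 69.4 CPM, and averaged 894 CPM in the uninduced monomer line. Srgn went from 36.4 ± 3.6 CPM to 24.0, 13.0 and 12.3 CPM. Alb was the member that rose, with 0 counts in each parental sample and 45, 49 and 39 counts in the dimer samples, at least 12.1-fold higher against a floor of 3 counts per library.

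Naive pluripotency factors fell in 11 of 14 cases and rose in 0, against 10.1% and 11.0% of all genes. Their median log2 fold change was -0.792. Nanog went from 210, 218 and 202 CPM to 42.8, 59.8 and 69.6 CPM (log2 fold change -1.87 ± 0.14, adjusted p = 1.8e-08), and averaged 76.0 CPM in the uninduced line. Esrrb went from 44.6 ± 9.0 CPM to 17.6, 25.8 and 30.7 CPM and Tfcp2l1 from 20.8 ± 3.7 CPM to 5.25, 8.45 and 12.1 CPM. Unlike Nanog, these 2 were above the parental line in the uninduced line, at means of 99.2 and 49.7 CPM. Against that line 12 of the 14 factors were lower in the TCF12 dimer and 0 higher, where 15.7% of all genes were lower. Of 16 core and formative factors 6 fell and 1 rose, so the count that rose is not above the background. Their median was -0.0867. The largest fall in that list in log2 terms after Fgf5 was that of Dnmt3b, a DNA methyltransferase of the formative state, from 2666 ± 48 CPM to 860, 1465 and 1676 CPM. Pou5f1 had a log2 fold change of 0.01 with all samples and -0.23 without replicate 1 (adjusted p = 0.0059), and Otx2 rose by 0.25 ± 0.08.

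Neural and neural crest genes rose in 8 of 21 cases and fell in 5, against 11.0% and 10.1% of all genes. Pax3, of dorsal neural tube, crest and somite, went from 0.311 ± 0.261 CPM to 6.40, 9.19 and 6.54 CPM, and Zic1 from 2.79 ± 0.34 CPM to 15.8, 23.1 and 15.8 CPM. Its relatives Zic2 and Zic5 fell, and Zic2 went from 204 ± 3 CPM to 71.9, 108 and 111 CPM. Tubb3, a neuronal tubulin, went from 39.0 ± 6.3 CPM to 150, 102 and 99.8 CPM. Of the retinoic acid genes 5 of 12 rose, among them the binding proteins Crabp1 and Crabp2, and Cyp26a1, which degrades retinoic acid, fell from 15.0 ± 1.1 CPM to 6.40, 3.20 and 3.39 CPM. Crabp1 had a log2 fold change of 2.25 with all samples and 1.54 without replicate 1.

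In the Notch list 6 of 16 genes rose and 4 fell, and in the FGF list 5 of 19 rose and 6 fell, where 11.0% of all genes rose and 10.1% fell. The Notch ligands Dll1 and Dll3 rose, Dll3 from 17.4 ± 0.5 CPM to 56.6, 41.0 and 33.6 CPM, while the receptor Notch3 and the ligand Jag2 fell. The receptors Fgfr1 and Fgfr2 rose, Fgfr2 from 9.27 ± 0.90 CPM to 16.1, 23.5 and 24.7 CPM. The feedback genes were split, with Spred1 and Dusp6 higher and Spry2, Etv4 and Etv5 lower. In the TGF-beta list 4 of 15 rose (Tgfb2, Tgfbr2, Tgfbr3 and Eng) and Ltbp3 fell. Trophoblast genes rose in 3 of 8 cases (Gata3, Plac1 and Hand1) and fell in 2, and 9 of 17 listed were too low to test, so this list holds few defining markers. Cell cycle inhibitors and p53 targets rose in 3 and fell in 3 of 16 cases, both near those shares of all genes. Of the Hox genes 4 of 35 could be tested and 0 passed, in either fit with edgeR. None of the 13 mitochondrially encoded genes passed in both fits with edgeR, 1 passed with all samples and 3 without replicate 1.

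By size, the genes with the largest rises that were named by rule were Fbln5, Gdf10, Tmem132c, Slc8a3, Tril, Rftn2 and Cygb. Fbln5, an elastic fibre protein, was at 0.109, 0.108 and 0.605 CPM in the parental line and at 29.6, 30.8 and 22.0 CPM in the dimer line (log2 fold change 6.54 ± 0.34, adjusted p = 9.7e-11). Tril, an accessory protein of Toll-like receptor signalling, went from 1.30 ± 0.11 CPM to 53.5, 55.7 and 43.9 CPM. Cygb, a cytoglobin of fibroblasts and stellate cells, went from 0.282 ± 0.163 CPM to 16.2, 7.38 and 5.57 CPM. All 7 were below 2 CPM in each sample of the uninduced monomer line. The largest falls were those of Wnt8a, Evx1, T, Fgf8, Sp5, Hprt, Fst and Foxa2. Among genes above 100 CPM, Cd34, Id1, Id2 and Id3 led the rises and Fst, Eomes, Trh and Nanog the falls. Trh, which encodes the precursor of thyrotropin-releasing hormone, went from 1734 ± 36 CPM to 455, 395 and 477 CPM and was at 476 to 525 CPM in the uninduced monomer line, where the difference from the TCF12 dimer did not pass.

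The TCF12 dimer was then set against the other 2 heterodimers. Against the TCF4 dimer 391 of 14294 genes passed in both fits (2.74%), 247 higher (1.73%) and 144 lower (1.01%). Against the TCF3 dimer 2107 passed (14.7%), 892 higher (6.24%) and 1215 lower (8.50%). These counts moved with single libraries. With all samples 464 genes passed against the TCF4 dimer, and 213, 85 or 49 passed when its replicate 1, 2 or 3 was left out, 1978 without TCF12 dimer replicate 2 and 4868 without replicate 3. In the comparison with the TCF3 dimer 2686 passed with all samples, 1750, 1649 or 1455 without its replicate 1, 2 or 3, and 4986 without TCF12 dimer replicate 3. With scaling by library size alone the TCF3 comparison gave 768 higher and 1608 lower genes in place of 1296 and 1390.

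All 4 ID genes were higher in the TCF12 than in the TCF4 dimer line, where 1.73% of all genes were. Id1 was at 271, 241 and 216 CPM in the TCF4 dimer samples, below each TCF12 dimer sample, and the log2 difference was 1.31 ± 0.28 (adjusted p = 0.019), and 0.61 without replicate 1 (adjusted p = 0.00057). For Id3 it was likewise 1.31 with all samples and 0.61 without replicate 1. Against the TCF3 dimer, at 402, 271 and 307 CPM, Id1 overlapped and did not pass in both fits. Of the EMT factors 6 of 10 were higher than in the TCF4 dimer and 0 lower. With TCF4 as partner Snai1 averaged 26.9 CPM and Zeb1 4.98 CPM, and with TCF3 45.4 and 12.1 CPM. For Cd34 the TCF4 dimer averaged 58.7 ± 5.0 CPM and the TCF3 dimer 133 ± 20 CPM, and the TCF12 dimer, at 146 ± 21 CPM, exceeded the first (log2 difference 1.31 ± 0.12, adjusted p = 1.2e-05) and overlapped the second. In the endoderm list 16 of 24 were lower in the TCF12 than in the TCF3 dimer, while 0 were lower and 1 was higher than in the TCF4 dimer. Gata6 averaged 4.53 CPM with TCF4 as partner and 27.2 CPM with TCF3. Of the naive factors 11 of 14 were lower than in the TCF3 dimer, and against the TCF4 dimer 1 was lower and 1 higher. Of the streak genes 6 of 18 were lower and 4 higher than in the TCF3 dimer, where 8.50% and 6.24% of all genes were.

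Of the genes that differed from both in both fits, the 4 with the largest differences in each direction were Hand1, Tmem119, Msx1 and Nnat, which were higher in the TCF12 dimer, and Dnah8, Kcnh8, Kit and Podxl, which were lower. Hand1 was at 3.54, 2.22 and 2.19 CPM in the TCF4 and at 7.19, 2.56 and 3.66 CPM in the TCF3 dimer, whose highest sample lay within the TCF12 dimer range. Nnat, an imprinted membrane protein of neural and other tissue, was at 167, 98.0 and 72.6 CPM in the TCF12 dimer, 71.6, 60.8 and 59.8 CPM in the TCF4 and 39.3, 29.7 and 30.9 CPM in the TCF3 dimer. Kit, the receptor of stem cell factor, was at 4.30, 8.94 and 9.12 CPM in the TCF12 dimer, below all samples of the TCF4 dimer (12.3 to 13.6 CPM), the TCF3 dimer (14.5 to 18.0 CPM) and the parental line (21.03 to 23.1 CPM). Podxl, a sialomucin related to Cd34, fell against the parental line, where Cd34 rose. Podxl was at 285, 260 and 275 CPM in the parental line and at 65.2, 107 and 131 CPM in the TCF12 dimer line. It averaged 160 CPM in the TCF4 and 209 CPM in the TCF3 dimer, and Cd34 was likewise higher in the latter.

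Because the introduced factors read E-boxes, the promoters of the called genes were searched for CANNTG in the 250 bases before the first start site listed for each gene by RefSeq (GRCm38.p6). A start was matched for 10331 of the 14311 tested genes. A match to CANNTG, which reads the same on both strands, was in 57.2% of 1165 promoters of genes that rose, 60.6% of 1072 that fell and 56.4% of the 8094 others. The variant CATCTG or its complement CAGATG, a subset of those matches, was in 11.2%, 9.98% and 9.39%, and in 14.5% of all 27025 promoters. Pairs of CANNTG were then counted by the number of bases between them. With 5 bases between them, a pair was in 14 of the 1165 promoters of genes that rose (1.20%), 4 of 1072 that fell (0.373%) and 24 of the 8094 others (0.297%), and in 0.651% of all 27025. At the other spacings from 2 to 10 bases the promoters of genes that rose had a pair in 0.172% to 0.429% of cases. Those of genes that fell had one in 0% to 0.466%, and the others in 0.297% to 0.568%. The 5-base share of the others, 0.297%, was thus at the low end of their own range. When every listed start was read, the 5-base pair was in 16 of the 1165 (1.37%) and in 0.395% of the others. These are counts of letters in a fixed window, with no test, and no binding was measured here.

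**Figure D5:**
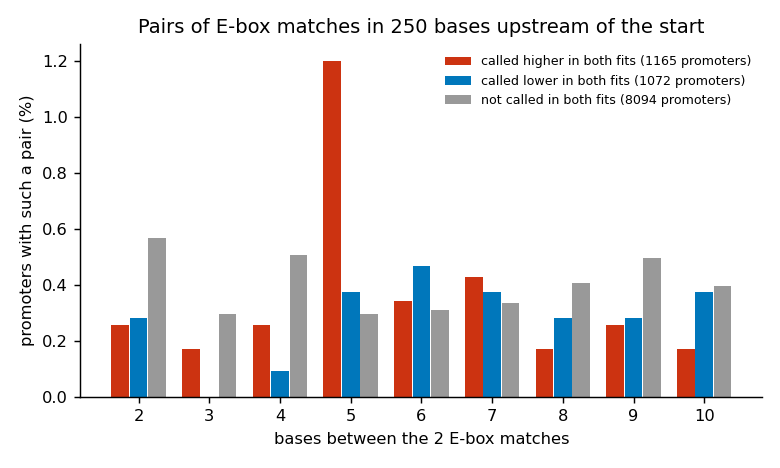
Share of promoters that hold a pair of E-box matches, in percent, against the number of bases between the 2 matches, for genes called higher (red), called lower (blue) and not called in both fits (grey). The red bar at 5 bases stands at 1.20%, and the red bars at the other spacings lie between 0.172% and 0.429%.

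Sites of this kind are shown for 6 of the 14 genes that rose and 2 of the 4 that fell, because the spacing is easier to see in the bases. The 6 do not represent the sizes of change in the 14. Among those not shown, Coro7 had a log2 fold change of 0.24, Ccdc91 of 0.34 and Gng4 of 3.15. Each is written 5′ to 3′ on the strand of the gene from RefSeq GRCm38.p6, with both CANNTG matches in capitals.
Slc6a17, chr3:107500745-107500771 (-): tgaatCATCTGctgctCATCTGctttc
Anpep, chr7:79848410-79848436 (-): agctgCAGATGtctccCAGATGtggtg
Lax1, chr1:133690217-133690243 (-): tcaacCACATGggcccCAGATGccaga
Bmp4, chr14:46390836-46390862 (-): tcttgCACGTGgtcccCAGGTGagccc
S1pr2, chr9:20977004-20977030 (-): taagcCAAATGgaataCAGTTGtttca
Hand2, chr8:57320733-57320758 (+): gaagCATCTGttaaaCACTTGcatta
Cer1, chr4:82885202-82885228 (-): ttgccCACCTGctgacCACCTGcctcc
Rab25, chr3:88548322-88548348 (-): ccaccCACCTGtgcccCAGGTGcccag
Slc6a17 and Anpep each have the same variant at both positions, CATCTG in one and its complement in the other. Cer1, which fell, likewise has CACCTG at both positions, and Rab25, which also fell, has CACCTG with its complement CAGGTG. Slc6a17, a vesicular amino acid transporter, went from 0.841 ± 0.239 CPM to 3.53 ± 0.43 CPM, and Anpep, aminopeptidase N, from 17.9 ± 1.1 to 40.2 ± 4.6 CPM. Lax1, an adaptor of lymphocyte signalling, had 0 counts in the parental line and 51, 49 and 41 counts in the dimer line, at least 12.9-fold higher against a floor of 3 counts per library. S1pr2, a receptor for sphingosine 1-phosphate, went from 21.4 ± 2.8 to 45.3 ± 7.0 CPM. Cer1, a secreted antagonist of Nodal, went from 3.96 ± 1.68 to 0.206 ± 0.043 CPM and Rab25, a small GTPase of epithelial cells, from 18.8 ± 2.3 to 14.4 ± 3.2 CPM, with overlapping samples.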

How the data were processed

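RNA-seq was read from 21 samples of day 3 mouse embryoid bodies, 3 per group. The labels' protocols name a TruSeq mRNA kit. The authors deposited 1 table per sample with unnormalized read counts for 48321 symbols. The submitters' processing notes name FastQC, TopHat2 and HTSeq and the builds mm10 and GRCm38, and give no versions. In 18 of the tables, 25 symbols had become calendar dates. The 3 TCF12 dimer tables keep them, so they were handled differently at some step, which cannot be told apart from the group.

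Counts were fitted with edgeR 4.0.16 (limma 3.58.1, R 4.3.3), quasi-likelihood F-test, TMM factors, default filterByExpr, 1 mean per group over 21 samples, and again without TCF12 dimer replicate 1. Genes at an adjusted p under 0.05 (Benjamini-Hochberg) pass. CPM were computed here with TMM factors. Errors are SD (n = 3) for CPM and SE, from the F statistic, for log2 fold changes. Floors of 3 counts and the intervals cover counting error only. Transcript lengths came from GENCODE M21. The script was tested on simulated data.

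Replicate numbers come from the titles. Same-numbered TCF12 dimer and parental samples deviated together (correlations 0.245, 0.123 and 0.107), all over 0.1, and were taken as paired in an alternative with a replicate block. Different-numbered pairs ranged from -0.225 to 0.125, so for replicates 2 and 3 the correlation was not specific to the number. Alternatives were DESeq2 1.42.0, RLE factors, library size, other filters, a 2-group fit, the replicate block, voom quality weights, length offsets and leaving out each sample.

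Members, lists and the naming rule were chosen with earlier results of these data known. The rule takes the construct genes, the 8 largest changes in each direction called in both fits without overlap and at 5 CPM or more, 4 more in each direction at 100 CPM or more, 4 in each direction that differ from both other heterodimers, and list members. Some genes that it names are not reported here.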

Additional observations from a re-analysis of the deposited data

Results flagged for a closer look

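The difference between the TCF12 dimer and each of the other 2 heterodimers passed in both fits for 8 genes named by rule. The test was edgeR's quasi-likelihood test, adjusted over all genes, and the log2 differences below are from the fit of all samples. Hand1 was higher by a log2 difference of 1.99 than in the TCF4 dimer and 1.22 than in the TCF3 dimer. Tmem119 differed by 1.27 and 0.97, Msx1 by 0.88 and 1.002, and Nnat by 0.81 and 1.751, in the same order. Dnah8 was lower, at -0.997 and -1.06, as were Kcnh8 at -1.13 and -0.83, Kit at -0.80 and -1.05, and Podxl at -0.66 and -1.05. Msx1 and Kcnh8 did not pass in both fits against the parental line. In a fit of the TCF12 and TCF4 dimer samples alone 0 genes passed with edgeR, and 898 had an unadjusted p under 0.05, whereas 588 passed (365 higher and 223 lower) when replicate 1 of the TCF12 dimer was left out of that fit. Groups of 3 were not tested for outlying samples.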

How the results depend on the processing

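Of the 3016 genes called in both fits, 2924 kept call and direction with DESeq2, 3002 with RLE factors, 2741 with library size only, 2869 with length offsets and 2997 with voom quality weights. With the samples of the 2 groups alone 823 kept them, and 2786 did when replicate 1 was also left out, an alternative chosen after seeing the data. The 2-group fits gave 824 genes against parental, 2023 against the uninduced monomer line, 236 against TCF3 and 0 against TCF4, and without replicate 1 they gave 4089, 6299, 3094 and 588. The TCF4 count of 464 became 306 with library size only, 1443 without a filter, 887 with length offsets, 901 with DESeq2 and 1197 with voom quality weights. Leaving out 1 sample gave 2590 to 6165 genes against parental, 4250 to 6955 against the uninduced line, 49 to 4868 against TCF4 and 1455 to 4986 against TCF3.

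Fits that added a replicate block gave 3853 genes against parental, 5310 against the uninduced line, 545 against TCF4 and 2691 against TCF3. They kept 2975 of the 3016 calls. The block assumes that same-numbered samples belong together, which the correlations did not establish for replicates 2 and 3. TCF12 dimer replicate 3 correlated at 0.125 with parental replicate 2 and at 0.107 with parental replicate 3. The block changed no count by over 1.5 times.

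Leaving out 1 sample gave log2 fold changes of -0.23 to 0.11 for Pou5f1, -0.26 to 0.34 for Spint2, -0.24 to 0.35 for Phlda3 and -0.36 to 0.23 for mt-Nd5. The sign turned without replicate 1, and the 2-group fit without it gave the same values (-0.23, -0.26, -0.24 and 0.23). Pou5f1 was also lower with length offsets (-0.19) and with voom quality weights (-0.21), as was Spint2 with voom quality weights (-0.21). The cause was not tested. Genes near the floor, 0.247 to 0.331 CPM in the 6 samples, are limited by depth.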
